A study of Arabidopsis thaliana with 18 samples.

Results

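The 36 probe sets described here had lower RNA levels in Arabidopsis plants treated with 12-oxo-phytodienoic acid (OPDA), in both genotypes studied, and were not lowered by phytoprostane A1 (PPA1) to the same degree. They were chosen by their measured values from 22746 probe sets. On log2 intensity (values below 1 set to 1), the group mean with OPDA had to lie at least 1 below control, with every OPDA array below every control array, in each genotype. The mean with PPA1 had to lie no more than 0.3 below control, and both control means had to be at least 6. The enzyme gene WES1 and symbols that begin with UGT, CYP, XTH, EXP, TBL, CSL, SKS, FLA, TUB or MYB were left out, which removed CYP71B23 and CYP71B24 from the 38 probe sets (0.167%) that met the thresholds. All 36 passed the filter on low values, like 21869 probe sets in all. The array annotation assigned 10 of them to 1 gene, 1 to several genes and 25 to none, and the 25 could not be checked against the symbols left out. Where a probe set without a gene name is singled out below, it was chosen after its values were seen. The changes with OPDA and with PPA1 against control were used in the choice, so they are described without a test.

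OPDA is made from α-linolenic acid in the plastid and is the precursor of jasmonic acid, the hormone that turns on wound and pathogen defence and restrains growth. Phytoprostanes such as PPA1 arise when reactive oxygen species oxidise that fatty acid, without an enzyme, and PPA1, like OPDA, carries a reactive cyclopentenone ring. TGA factors are bZIP transcription factors, and TGA2, TGA5 and TGA6 act redundantly in the salicylic acid response and in the induction of detoxification genes.

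RNA was measured on 18 single-colour Affymetrix arrays in 6 groups of 3 replicates, which the labels call independent. The triple mutant tga2-5-6, by its name lacking 3 TGA factors, was treated for 4 h with 75 µM OPDA, with 75 µM PPA1 or with 0.5% methanol in water (control). The wild-type accession Col-0 had the same 3 treatments. The organ, the age and the growth conditions are not named in the labels, and the study asked which genes responding to these compounds depend on TGA factors.

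The mutant label was not checked through its targets, since none of TGA2, TGA5 and TGA6 was named by the annotation. Of the marker lists, the annotation named 1 of 7 root genes, PYK10, a root β-glucosidase. Its mean control intensities were 17412 in tga2-5-6 and 17840.0 in Col-0. Of the 7 shoot genes 1 was named, RCA, the activase of Rubisco, with 20346 in tga2-5-6 and 20409 in Col-0. The named marker of each organ had a high signal. In such bulk samples, fewer cells of a type and less RNA per cell cannot be told apart. The arrays had median intensities between 159 and 185. The ratio of 3' to 5' actin probe sets is a measure of RNA integrity. In tga2-5-6 it averaged 30.4 ± 4.60 with OPDA, 29.4 ± 3.47 with PPA1 and 48.3 ± 16.8 in control. In Col-0 it averaged 28.1 ± 3.22, 28.7 ± 3.21 and 34.4 ± 11.7 (SD, n = 3). The same ratio for GAPDH ran from 0.87 to 1.99 over the arrays. Without the array with the highest actin ratio, tga2-5-6 control replicate 1 (66.6), the rule chose 42 probe sets, among them all 36. The median change of all kept probe sets with OPDA was -0.17 in tga2-5-6 and -0.12 in Col-0. With every array centred on its median, the rule chose 27 probe sets, of which 23 were among the 36. The number of arrays limits the precision of every value.

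By OPDA alone, without the condition on PPA1, 334 probe sets (1.47% of 22746) met the rule in both genotypes, with the same symbols left out. Of these, 90 (26.9%) were at least 1 below control with PPA1 in both genotypes as well. The 36 that held within 0.3 of control or above it in both genotypes made up 10.8%. The remaining 208 (62.3%) met neither limit in both genotypes. Some of them had PPA1 changes of opposite sign in tga2-5-6 and Col-0. The median change of the 334 with PPA1 was -0.73 in tga2-5-6 and -0.72 in Col-0. The probe sets described here are the upper end of a continuous spread of PPA1 changes, with no gap at the threshold. Nearest inside the PPA1 threshold were 263584_at at -0.297 and TET10 at -0.28, and nearest outside were 262092_at at -0.302 and 257129_at at -0.31. Nearest inside the OPDA threshold were WRKY53 at -1.01 and AT1G66180 at -1.02, and nearest outside were 255852_at at -0.996 and AT1G27480 at -0.99. For the control mean, 257624_at at 6.15 and 261449_at at 6.55 were nearest inside, and AT4G39320 at 5.90 and 250597_at at 5.80 nearest outside. The gap between the lowest control and the highest OPDA array was smallest inside for 261449_at (0.11) and 257624_at (0.15), and nearest outside for 259723_at (-0.012) and AT2G05910 (-0.069), all on the log2 scale.

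**Figure D1:**
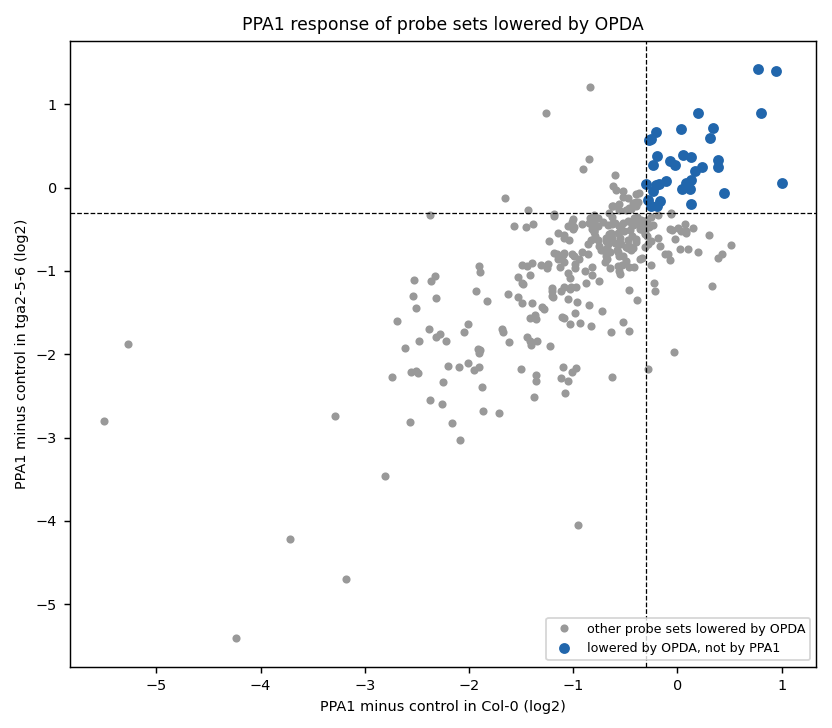
Change with PPA1 against control (log2 difference of group means) in tga2-5-6 (vertical) and Col-0 (horizontal) for the 334 probe sets lowered by OPDA in both genotypes. Dashed lines mark -0.3. The 36 chosen probe sets lie above both lines at the upper right of a cloud whose medians are -0.73 in tga2-5-6 and -0.72 in Col-0.

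The 36 spanned a wide range of signal, from a mean control intensity of 86.9 to 8940 with a median of 378, and 8 of them reached 1000 while 10 were under 200. Per array, the median log2 intensity over the 36 lay between 7.07 and 7.30 with OPDA, 8.69 and 8.85 with PPA1, and 8.44 and 8.58 in control in tga2-5-6. In Col-0 it lay between 7.05 and 7.42 with OPDA, 8.45 and 8.75 with PPA1, and 8.39 and 8.57 in control. The change with OPDA had a median of -1.35 in tga2-5-6 and -1.33 in Col-0, and over the 35 probe sets whose OPDA means reached 16, the value of the filter on low signals, it ran from -2.69 to -1.04 in tga2-5-6 and from -2.35 to -1.01 in Col-0. The size of the change is not given for the other one, 263443_at, because its mean OPDA intensity was under 16 in both genotypes. Of the 36, 18 were under 3-fold in both genotypes, and of the 35, AT1G65490 was 4-fold or more in both. The change was deeper in tga2-5-6 for 21 and deeper in Col-0 for 15. Probe sets that passed the test lower with OPDA (adjusted p under 0.05 and at least 2-fold, limma) were 3.06% of all kept ones in tga2-5-6 and 2.1% in Col-0, and those whose OPDA arrays all lay below the controls were 20.8% and 17.9%. Of the calls with OPDA over all probe sets, 744 were higher and 670 lower in tga2-5-6, against 837 and 463 with centring on the median and 851 and 432 with quantile normalization. In Col-0, 623 were higher and 460 lower, against 710 and 332 with centring and 659 and 370 with quantile normalization.

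**Figure D2:**
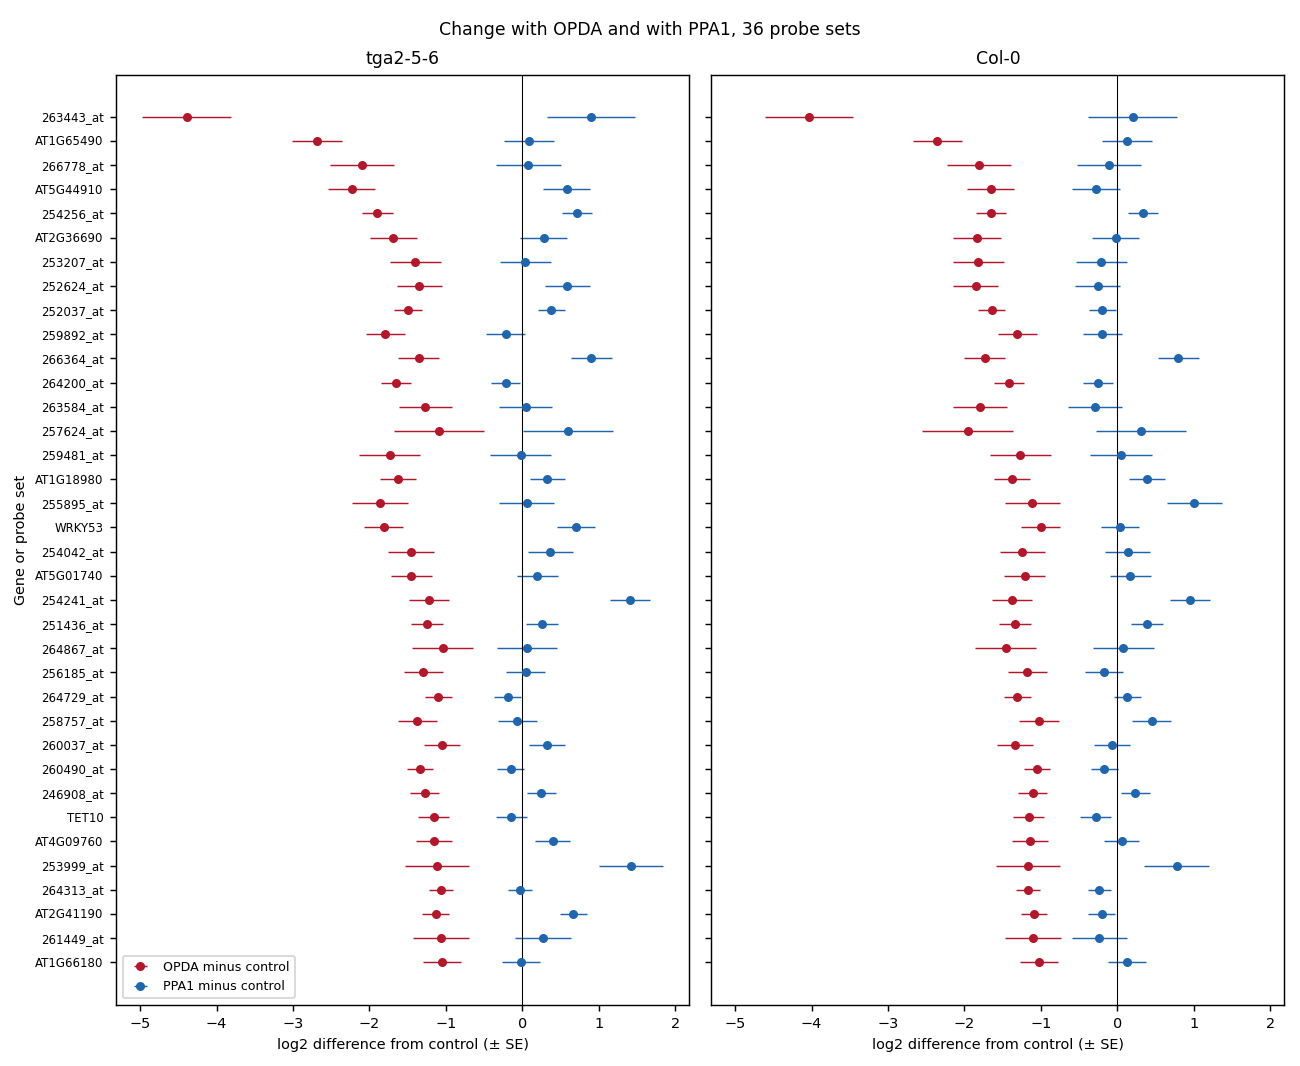
Change with OPDA (red) and PPA1 (blue) against control for each of the 36 probe sets (log2 difference ± SE of the fit over 18 arrays), tga2-5-6 left and Col-0 right, ordered by the mean OPDA change. The OPDA points run from -2.69 to -1.04 in tga2-5-6 and from -2.35 to -1.01 in Col-0, apart from the lowest point, 263443_at, whose OPDA signal was near or below 16 so that its size is inexact, and the PPA1 points scatter around 0, up to 1.42.

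The highest named gene was AT1G65490, whose product has no role given here. Its intensities in tga2-5-6 were 316, 742 and 557 with OPDA, 3696, 3894 and 2926 with PPA1 and 3783, 3249.7 and 2856 in control. In Col-0 they were 668, 543 and 415 with OPDA, 3888, 2038 and 3305 with PPA1 and 2377, 2224 and 3797 in control. All 6 OPDA arrays lay at or under 742, all PPA1 and control arrays at or above 2038, and the PPA1 and control arrays overlapped in both genotypes. The log2 change with OPDA was -2.69 ± 0.33 in tga2-5-6 and -2.35 ± 0.33 in Col-0, which is 6.45-fold and 5.11-fold lower.

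Among regulators and defence-related genes, WRKY53 encodes a transcription factor known for promoting leaf senescence and for a part in defence. In tga2-5-6 its intensities were 119, 139.7 and 116 with OPDA, 694, 844 and 615 with PPA1 and 402, 482 and 432 in control. Col-0 plants had 98.2, 100.5 and 64.9 with OPDA, 151, 179 and 205 with PPA1 and 131, 270.0 and 146 in control. The 3 treatments separated completely in the mutant, in the order OPDA, control, PPA1, while in Col-0 the PPA1 arrays lay among the controls and the OPDA arrays below both. The change with OPDA was -1.81 ± 0.25 in tga2-5-6 and -1.01 ± 0.25 in Col-0, and with PPA1 0.70 ± 0.25 and 0.032 ± 0.25. Between genotypes these changes differed by -0.81 ± 0.36 with OPDA and 0.67 ± 0.36 with PPA1. Both differences are made of changes that the rule used, so they are described without a test. The OPDA change of WRKY53 in Col-0 depended on the processing. It was -0.89 with centring on the median and -0.87 with quantile normalization, so WRKY53 missed the OPDA threshold of the rule in both settings. When single arrays were left out, it was as small as -0.68. AT5G44910 encodes a protein with a TIR domain, a module of many plant immune receptors. The tga2-5-6 arrays read 36.7, 19.1 and 34.1 with OPDA, 195, 186 and 226 with PPA1 and 152, 134 and 123 in control. The Col-0 arrays read 69.7, 45.8 and 47.7 with OPDA, 166, 177 and 91.9 with PPA1 and 237, 123 and 164 in control. The OPDA arrays were the lowest in each genotype, the PPA1 arrays lay above all controls in tga2-5-6, and they overlapped the controls in Col-0. The change with OPDA was -2.23 ± 0.31 in tga2-5-6, or 4.70-fold lower, and -1.66 ± 0.31 in Col-0, or 3.16-fold lower.

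The named genes included 3 that encode enzymes. AT2G36690 encodes a member of the oxygenases that use 2-oxoglutarate and iron, a family that includes steps of hormone and secondary metabolism. In tga2-5-6 it had 62.1, 35.5 and 70.5 with OPDA, 285, 153 and 212 with PPA1 and 197, 163 and 162 in control. In Col-0 the values were 43.6, 85.2 and 73.5 with OPDA, 203, 272 and 215 with PPA1 and 184, 259 and 261 in control. No OPDA array reached any other array, and PPA1 and control overlapped. Its change with OPDA was -1.69 ± 0.31 in tga2-5-6 and -1.84 ± 0.31 in Col-0. AT4G09760 encodes a choline kinase, which phosphorylates choline for phosphatidylcholine synthesis. Its intensities in tga2-5-6 were 138, 154 and 138 with OPDA, 313, 432 and 547 with PPA1 and 362, 279 and 322 in control. In Col-0 they were 164, 135 and 175 with OPDA, 312, 333 and 453 with PPA1 and 281, 314 and 476 in control. The OPDA arrays of both genotypes were close together and below all others, and the change was -1.16 ± 0.23 in tga2-5-6 and -1.15 ± 0.23 in Col-0. AT1G66180 encodes a protein of the aspartyl protease family. The tga2-5-6 arrays read 462, 403 and 583 with OPDA, 993, 926 and 1028 with PPA1 and 1033, 816 and 1155 in control. Col-0 plants had 686, 371 and 878 with OPDA, 1374, 1359.9 and 1281 with PPA1 and 1251, 1232 and 1208 in control. Its OPDA arrays in Col-0 were spread widely, with replicate 3 the closest to the controls, and its PPA1 arrays there lay just above the controls. The change of -1.06 ± 0.25 in tga2-5-6 and -1.02 ± 0.25 in Col-0 was the smallest of the named genes by the mean of both genotypes.

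The others encode membrane, wall and small-domain proteins. TET10 encodes a tetraspanin, one of the membrane proteins that organise other proteins into microdomains. In tga2-5-6 it had 142, 239 and 157 with OPDA, 335, 338 and 389 with PPA1 and 374, 324 and 491 in control. The Col-0 arrays read 233, 227 and 213 with OPDA, 394, 402 and 444 with PPA1 and 495, 420.2 and 606 in control. OPDA arrays lay below all others, and the change was -1.16 ± 0.20 in tga2-5-6 and -1.16 ± 0.20 in Col-0. AT2G41190 encodes a membrane protein of the amino acid transporter family. Its intensities in tga2-5-6 were 75.7, 63.2 and 61.5 with OPDA, 211, 252 and 233 with PPA1 and 127, 197 and 125 in control. In Col-0 the values were 87.2, 87.5 and 79.1 with OPDA, 135, 186 and 152 with PPA1 and 181, 189 and 170.3 in control. The PPA1 arrays lay above all controls in tga2-5-6 and overlapped them in Col-0. The change with OPDA was -1.13 ± 0.18 in tga2-5-6 and -1.09 ± 0.18 in Col-0.

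AT1G18980 encodes a germin-like protein of the cupin family, usually found in the cell wall. The tga2-5-6 arrays read 363, 219.7 and 381 with OPDA, 1013, 1428 and 1219 with PPA1 and 1209.5, 790.2 and 934 in control. In Col-0 they were 394, 311 and 362 with OPDA, 1352, 1292 and 996 with PPA1 and 1091, 829 and 857 in control. All OPDA arrays stayed under every other array, and the PPA1 arrays overlapped the controls. The change with OPDA was -1.63 ± 0.23 in tga2-5-6 and -1.38 ± 0.23 in Col-0. AT5G01740 encodes a small protein of the NTF2-like family. In tga2-5-6 it had 244, 272 and 274 with OPDA, 918, 565 and 1082 with PPA1 and 805, 674 and 688 in control. Col-0 plants had 377, 195 and 259.7 with OPDA, 578, 731 and 797 with PPA1 and 779, 487 and 624 in control. The tga2-5-6 OPDA arrays were nearly equal, those of Col-0 more spread, and the change was -1.45 ± 0.27 in tga2-5-6 and -1.21 ± 0.27 in Col-0.

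**Figure D3:**
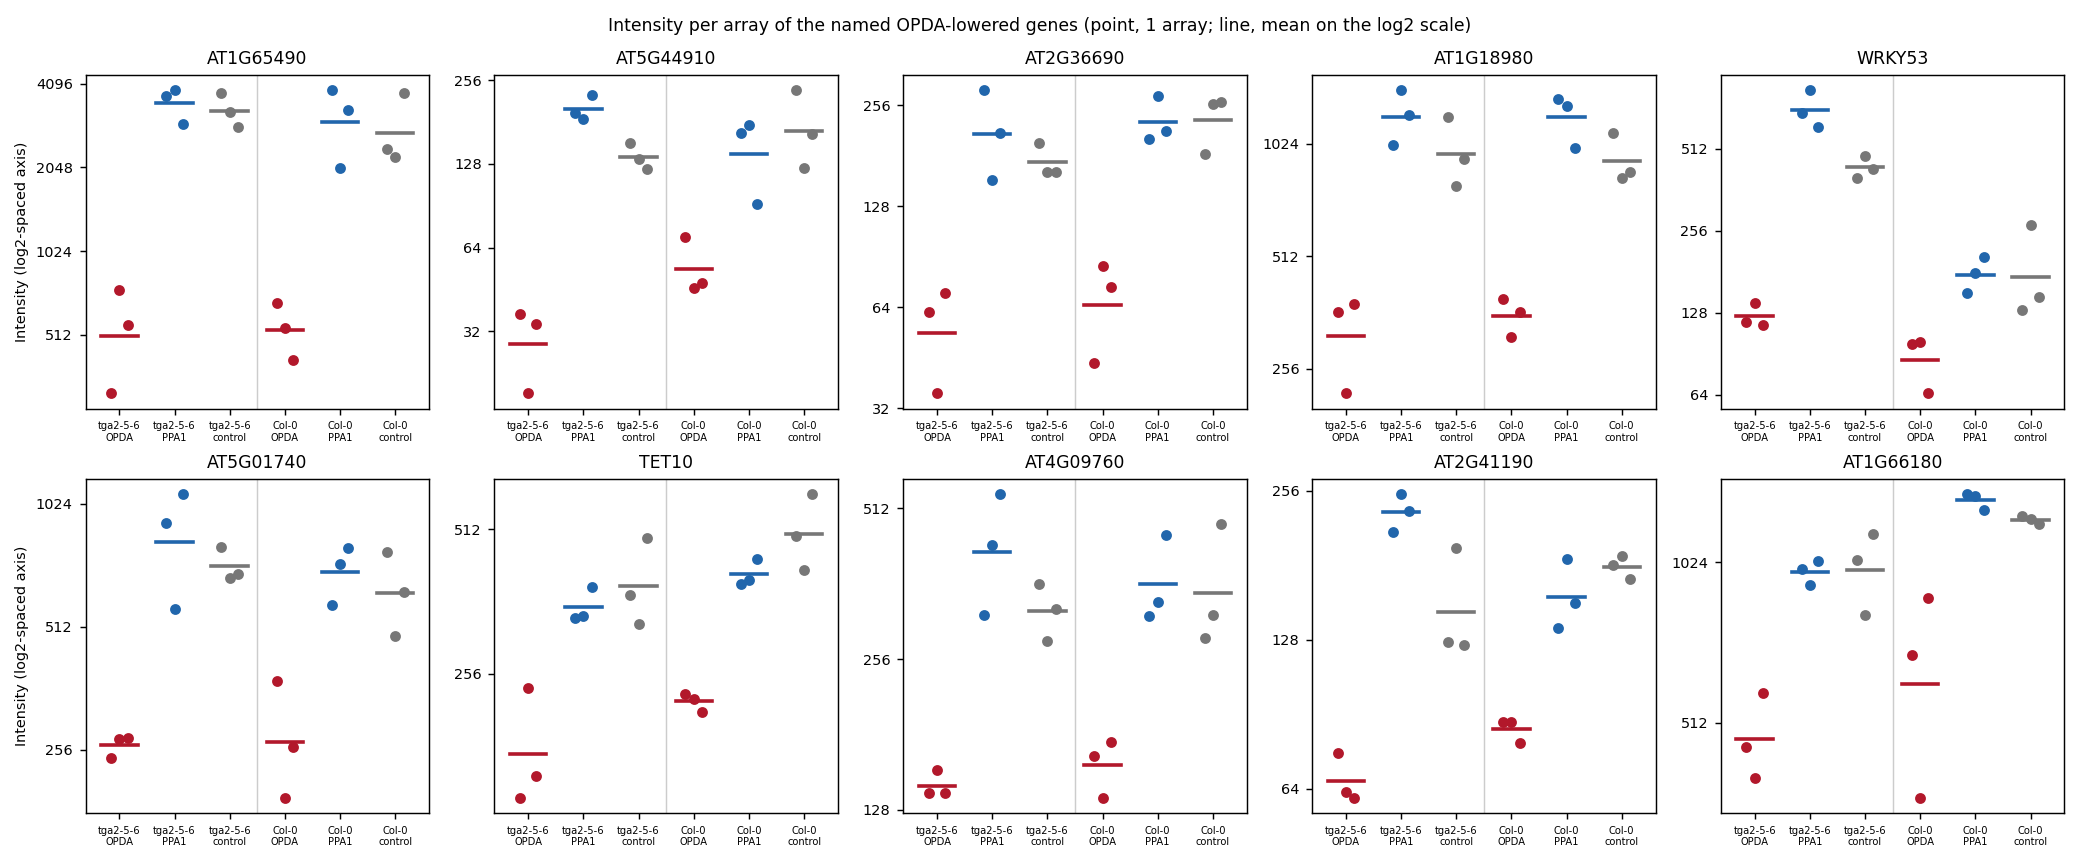
Intensity on each array (log2-spaced axis, a scale of its own in each panel) of the 10 genes named by the annotation, by genotype and treatment; points are arrays and lines are means on the log2 scale. OPDA arrays lie below the controls of the same genotype in every panel, as the rule requires, and WRKY53 is higher in tga2-5-6 than in Col-0 with PPA1 and in control.

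Among the probe sets without a gene name, the deepest was 263443_at, with 4.97, 24.5 and 3.42 with OPDA, 278, 240.3 and 371 with PPA1 and 189, 132 and 154 in control in tga2-5-6. In Col-0 it had 6.00, 19.7 and 16.4 with OPDA, 241, 226 and 236 with PPA1 and 198, 239 and 179 in control. The OPDA arrays lay at or below 24.5, near or under the filter's 16, while the others lay at or above 132, so levels are given in place of a change. The strongest signal belonged to 259892_at, with 2226, 2516 and 2580.0 with OPDA, 6615, 6349.6 and 9058 with PPA1 and 9952, 5656 and 10696 in control in tga2-5-6. In Col-0 it had 5092, 3148 and 3050.2 with OPDA, 9195, 7858 and 6858 with PPA1 and 7966, 9737 and 9630.5 in control. PPA1 and control overlapped in both genotypes, and OPDA lay below them. In 254256_at the intensities in tga2-5-6 were 191, 197 and 142 with OPDA, 968, 1092 and 1139 with PPA1 and 645, 723 and 589 in control. The Col-0 arrays read 103, 106 and 98.2 with OPDA, 466, 467 and 311 with PPA1 and 388, 346 and 249 in control. Each tga2-5-6 group lay above the Col-0 group of the same treatment. This also held for WRKY53, 263584_at and 264867_at, though neither 263584_at nor 264867_at passed in a genotype comparison.

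With PPA1 the same probe sets were near or above control. The median change was 0.25 in tga2-5-6 and 0.05 in Col-0, against -0.13 and -0.055 over all kept probe sets, and a floor of -0.3 was part of the rule. The PPA1 mean was above control for 27 of 36 in tga2-5-6 and for 20 in Col-0. Every PPA1 array lay above every control array for 9 probe sets in tga2-5-6 and 7 in Col-0, against 10.5% and 10.1% of the 14786 probe sets with the same minimum in control. In both genotypes at once this held for 3, 266364_at, 254241_at and 253999_at, against 4.25%. For 254241_at the change with PPA1 was 1.41 ± 0.26 in tga2-5-6 and 0.94 ± 0.26 in Col-0. For 253999_at it was 1.42 ± 0.42 and 0.77 ± 0.42, and for 266364_at 0.90 ± 0.27 and 0.80 ± 0.27. No probe set had all PPA1 arrays below control in tga2-5-6, and 1 did in Col-0, 252037_at, with 2568, 2454 and 2729.9 against 3129, 2811 and 2946. All OPDA arrays lay below all PPA1 arrays for 36 of 36 in tga2-5-6 and 35 in Col-0, where 261449_at was the exception; among the 14786 this held for 16.6% and 15.1%. Both conditions of the rule favour this order.

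The comparison of tga2-5-6 with Col-0 within a treatment was not used to choose the probe sets and asks whether their level depended on the TGA factors. Under OPDA, 0 of 36 passed (limma, adjusted over 21869 probe sets; 8 at an unadjusted p under 0.05, against 11.5% of all), where 0.787% of all passed in either direction. Under PPA1, 2 were higher in the mutant, WRKY53 and 254256_at, and 0 lower, where 0.69% and 0.883% of all probe sets passed, and 11 had an unadjusted p under 0.05, against 12.6% of all. In control the same 2 were higher and 0 lower, where 0.297% and 0.238% passed, and 4 had an unadjusted p under 0.05, against 12.1% of all. The median difference over the 36 was -0.14 under OPDA, 0.22 under PPA1 and -0.084 in control, against 0.0038, -0.024 and 0.046 over all kept probe sets.

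WRKY53 had a mean intensity of 718 ± 116 in tga2-5-6 against 178 ± 27.0 in Col-0 under PPA1 (SD, n = 3 each). The log2 difference was 2.01 ± 0.25 (95% interval 1.46 to 2.55, adjusted p = 0.00068, limma). In control the means were 439 ± 40.6 in tga2-5-6 and 182 ± 76.2 in Col-0, a difference of 1.34 ± 0.25 (adjusted p = 0.0323, limma). Under OPDA they were 125 ± 13.0 and 87.9 ± 19.9, a difference of 0.53 ± 0.25 that did not pass (adjusted p = 0.45, limma). The tga2-5-6 arrays lay above the Col-0 arrays under each treatment. The difference under PPA1 passed in all 18 fits that left out 1 array. The difference in control did not pass without Col-0 control replicate 1 (1.14, adjusted p = 0.12, limma) or 3 (1.22, 0.135), nor without tga2-5-6 control replicate 1 (1.40, 0.0843), 2 (1.27, 0.105) or 3 (1.35, 0.0739).

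For 254256_at the difference was 1.38 ± 0.20 under PPA1 (adjusted p = 0.00179, limma) and 1.01 ± 0.20 in control (adjusted p = 0.0388, limma). Under OPDA it was 0.77 ± 0.20 and did not pass (adjusted p = 0.106, limma). The control difference lost its call in 12 of the 18 fits without 1 array (0.83 to 1.08 in these 12, adjusted p up to 0.145, limma). Among the others, AT5G44910 lay lower in every tga2-5-6 array under OPDA (-0.89 ± 0.31, adjusted p = 0.264, limma) and higher in every one under PPA1 (0.54 ± 0.31, adjusted p = 0.525, limma), and neither passed. AT2G41190 had the same arrangement, with -0.35 ± 0.18 under OPDA and 0.57 ± 0.18 under PPA1 (adjusted p = 0.481 and 0.15, limma), and did not pass either. The probe set with several genes, 255895_at, was lower in tga2-5-6 by a log2 difference of -1.34 ± 0.36 under PPA1 (adjusted p = 0.0845, limma) and did not pass.

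Groups without overlap between genotypes under OPDA were 4 higher and 4 lower in tga2-5-6, against 9.41% and 7.82% of all probe sets. In control they were 5 higher and 4 lower, against 11.5% and 7.73%. Under PPA1 they were 11 higher and 6 lower of 36, against 8.78% and 9.39%. All these shares are over the 21869 kept probe sets, without the rule's minimum in control. The 36 had been chosen with a lower limit on the PPA1 change in both genotypes, and its part in these counts was not tested. The genotype difference of the OPDA change itself ran from -0.81 ± 0.36 for WRKY53 to 0.86 ± 0.84 for 257624_at. Its median was -0.039 against -0.033 over all kept probe sets. The lowest Col-0 OPDA array of 257624_at read 6.17. For this difference, 0 of 21869 probe sets had an adjusted p under 0.05 (limma). For the genotype difference of the PPA1 change, 2 of 21869 did, and 0 of them were among the 36. The rule used the changes that make up both differences, so these counts are no test of the 36.

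**Figure D4:**
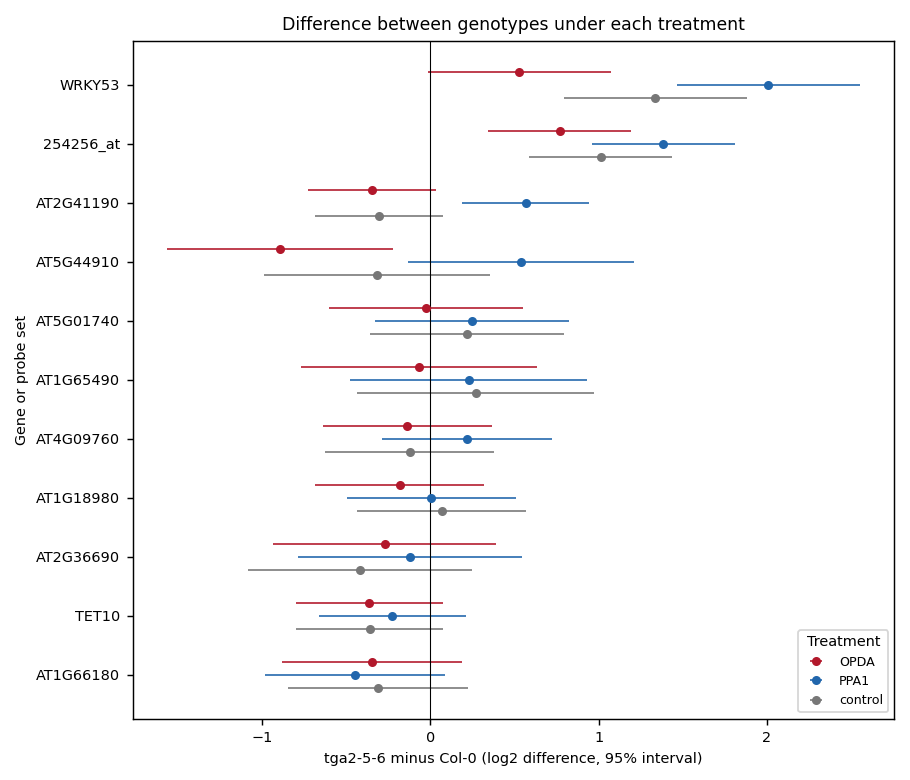
Difference between tga2-5-6 and Col-0 (log2, points, with 95% intervals not adjusted for the number of probe sets) under OPDA (red), PPA1 (blue) and control (grey) for the 10 named genes and 254256_at. WRKY53 (2.01 with PPA1, 1.34 in control) and 254256_at (1.38 and 1.01) are the ones that passed the test.

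The relatives of the named genes did not all follow them. Of 5 other WRKY genes measured, none fell with OPDA by the test in either genotype, and WRKY6, a senescence and defence regulator, rose in tga2-5-6 (1.50 ± 0.29, adjusted p = 0.00486, limma). The median OPDA change of the 5 was 0.35 in tga2-5-6 and 0.38 in Col-0. Of 13 other tetraspanin genes, 1 fell in tga2-5-6, TET2 (-1.03 ± 0.13, adjusted p = 0.000308, limma), and 2 fell in Col-0, TET2 (-1.31 ± 0.13, adjusted p = 6.92e-05, limma) and TET3 (-1.30 ± 0.14, adjusted p = 0.000118, limma). The median OPDA change of the 13 was -0.91 in tga2-5-6 and -0.54 in Col-0, against -0.17 and -0.12 over all kept probe sets. These medians rest in part on low signals. For TET4, TET9, TET11, TET12, TET13, TET14 and TET16 no group mean exceeded 68.1, and the standard errors ran from 0.74 to 1.39. With PPA1, 0 of the 13 passed, where 1.28% of all passed lower in tga2-5-6 and 0.86% in Col-0, and the medians of the 13 were -0.44 and -0.40. Some changes with PPA1 had an adjusted p under 0.05 but were under 2-fold. In Col-0, TET2 changed by -0.62 ± 0.13 and TET3 by -0.81 ± 0.14 (adjusted p = 0.0186 and 0.00514, limma). TET8 changed by 0.87 ± 0.18 in tga2-5-6 and 0.81 ± 0.18 in Col-0 (adjusted p = 0.0141 and 0.021, limma).

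Of 165 genes in 13 pathway and marker lists, 18 counted as measured, which means that the annotation named them for a probe set. The 8730 probe sets without a gene name may include other genes of the lists. No listed gene was among the 10 named members, and the 25 members without a gene name could not be checked. With OPDA, 0 of the 18 fell in either genotype and 5 rose in each, where 3.4% of all probe sets passed higher in tga2-5-6 and 2.85% in Col-0. The lists were chosen with earlier results of these data known, so the counts are a description and no test of the lists. The jasmonate list had 3 of 17 measured, of which 3 rose in tga2-5-6 and 2 in Col-0; OPCL1, a ligase of jasmonate synthesis, changed by 1.75 ± 0.27 in tga2-5-6 and 1.84 ± 0.27 in Col-0 and passed in both. In the auxin list, 4 of 25 were measured and GH3.3, an auxin-conjugating enzyme, rose in both. In the gibberellin list, 3 of 14 were measured and the receptor gene GID1B rose in Col-0 (1.06 ± 0.22, adjusted p = 0.00783, limma). The salicylic acid list had 1 of 10, GRX480, a glutaredoxin, which rose with OPDA in both. GRX480 also passed higher with PPA1, by 2.60 ± 0.69 in tga2-5-6 and 3.11 ± 0.69 in Col-0. Of the cytokinin (2 of 11), root hair (2 of 8), clock (1 of 19), root (1 of 7) and shoot (1 of 7) lists, 0 measured genes passed with OPDA. Aquaporins, brassinosteroid, mineral uptake and cell cycle genes had 0 measured of 18, 8, 12 and 9.

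Neighbouring genes were examined up to 2 protein-coding genes to each side of the named genes, in the order of the TAIR10.1 annotation. Of 40 places, 16 held a gene that the annotation named for a probe set, with 17 probe sets in all. With OPDA, 0 of the 17 fell in tga2-5-6 and 2 fell in Col-0, where 3.06% and 2.1% of all probe sets passed lower, and 0 rose in either. AT5G01750, next to AT5G01740 and encoding a LURP-one-related protein, changed by -0.71 in tga2-5-6, under 2-fold, and by -1.04 in Col-0, where it passed. AT1G65510, the second gene from AT1G65490, changed by -0.98 in tga2-5-6 without passing and by -1.59 in Col-0, where it passed. AT1G65500, between them, changed by -0.63 in tga2-5-6 and -0.47 in Col-0 and did not pass in either.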

How the data were processed

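The authors deposited linear intensities, with a single value for each probe set on each array, and by the values themselves each array was scaled to the same trimmed mean. GCRMA is the tool in the submitters' processing notes; its output would be log2 and quantile-normalized, unlike these values, so the method is not established. Here, log2 was taken after raising values under 1 to 1, and nothing else was normalized. Of 22810 probe sets, 64 controls were dropped, and a further filter asked for 16 or more on 3 arrays (21869 left). limma 3.58.1 (R 4.3.3) fitted group means to all 18 arrays, with 12 residual and 1.50 prior degrees of freedom. Tests are two-sided, with Benjamini-Hochberg adjustment across the 21869. Passing required an adjusted p under 0.05 together with a change of 2-fold or more. The fit was tested on simulated data. The ± of a log2 difference is its standard error in the fit, and of a mean intensity the SD over arrays.

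Figures were drawn with matplotlib 3.10.9 in Python 3.11.15. Gene names come from the array annotation (13513 probe sets with 1 gene, 503 with several and 8730 with none), updated through TAIR10.1. The members and the gene lists were chosen with earlier results of these data known. Named were the 10 members with 1 gene, those that passed between genotypes and those nearest each threshold. The alternatives were centring, quantile normalization, other floors and filters, moderated variances with trend, the compared groups only, a replicate block, other thresholds of the rule, and leaving out each array. Replicate numbers did not pair the samples: over 21 pairs the correlations of deviations from group means ran from -0.027 to 0.067. Promoter, protein and probe sequences were not analysed here.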

Additional observations from a re-analysis of the deposited data

How the results depend on the processing

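The number of probe sets that met the rule was 36. It was 70 with PPA1 allowed down to -0.5, 65 with an OPDA threshold of -0.8 and 19 with one of -1.2, since these widen or narrow the rule by construction, and 32 to 42 without 1 array, sharing 30 to 36 with the 36. It was 30 with quantile normalization (26 shared). With the arrays of the compared groups only, all calls became fewer: 718 in place of 1414 for OPDA against control in tga2-5-6, and between genotypes 11 in place of 172 under OPDA, 89 in place of 344 under PPA1 and 6 in place of 117 in control. In that fit 1 of the 36 was higher under PPA1 (254256_at lost its call, adjusted p = 0.0972, limma) and 0 in control (WRKY53 adjusted p = 0.297, limma). In control, centring on the median left 1 (254256_at changed by 0.96, under 2-fold). With a filter at 64, and with a variance trend and robust moderation, 1 of the 36 was lower under PPA1, 255895_at (adjusted p = 0.0493 and 0.0207, limma).

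Without 1 array, OPDA against control gave 1016 to 1455 calls in tga2-5-6 and 798 to 1105 in Col-0, and the genotype comparisons gave 113 to 168 under OPDA, 238 to 360 under PPA1 and 43 to 121 in control. The lowest of these were without tga2-5-6 OPDA replicate 3 (113) and without Col-0 control replicate 3 (43); the control comparison also fell by over 1.5 times without Col-0 control replicate 1 (67) or 2 (66) and tga2-5-6 control replicate 1 (58) or 2 (72). Of the 36, 0 to 2 were then higher in control, 2 under PPA1 and 0 to 1 under OPDA (without tga2-5-6 PPA1 replicate 2), and 0 to 1 were lower under OPDA and under PPA1, in both cases 255895_at without Col-0 OPDA replicate 2. With the replicate number as a block, the counts were 1412 and 1088 for OPDA in tga2-5-6 and Col-0, and 157, 340 and 103 between genotypes under OPDA, under PPA1 and in control, with no call among the 36 changed; the numbers do not pair the samples. Over 36 results of the named genes and 2 probe sets between genotypes in 26 settings, 911 kept their side of the threshold, 21 lost the call, 4 gained it and 0 called differences changed sign. The cause of these shifts was not tested. Signals near or below 16, the value of the filter, as for 263443_at with OPDA, limit the size of a change that can be given.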

Other observations

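The 2 probe sets left out by symbol encode cytochrome P450 enzymes of the CYP71B group. CYP71B23 had intensities of 272, 189 and 203 with OPDA, 1015, 1242 and 1075 with PPA1 and 601, 739 and 458 in control in tga2-5-6. In Col-0 it had 61.3, 85.0 and 134 with OPDA, 377, 511 and 460.1 with PPA1 and 201, 389 and 363 in control. CYP71B24 had 34.4, 31.8 and 47.5 with OPDA, 207, 274 and 280.0 with PPA1 and 109, 161 and 183 in control in tga2-5-6. In Col-0 it had 32.4, 37.6 and 67.0 with OPDA, 76.3, 148 and 96.7 with PPA1 and 88.0, 99.6 and 116 in control. In both genes the PPA1 arrays of tga2-5-6 lay above all of its controls. Under PPA1 the log2 level was higher in tga2-5-6 than in Col-0, for CYP71B23 and CYP71B24 by 1.31 ± 0.30 and 1.29 ± 0.31 (adjusted p = 0.0423 and 0.0494, limma). The other genotype differences did not pass. Under OPDA they were 1.30 ± 0.30 for CYP71B23 and -0.22 ± 0.31 for CYP71B24 (adjusted p = 0.0696 and 0.86, limma), and in control 0.95 ± 0.30 and 0.55 ± 0.31 (adjusted p = 0.223 and 0.51, limma). Both genes are described here after their values were seen.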
